A study of Mus musculus with 9 samples.

Results

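The genes described here encode the 2',5'-oligoadenylate synthetases of the mouse, described with other genes of their pathway. Of 6 synthetase genes looked for by name (Oas1a, Oas1g, Oas2, Oas3, Oasl1 and Oasl2), 4 had a row among the 41096 genes of the deposited expression table: Oas2, Oas3, Oasl1 and Oasl2. The name is used for the gene family, and Oasl1 is counted in it although it lacks synthetase activity. Oas1a and Oas1g matched no gene name and were not analysed here. RNA was sequenced from peritoneal exudate cells, labelled peritoneal macrophages, of APOE-/- mice, which lack apolipoprotein E and develop atherosclerosis. The 5 control samples came from mice given citrate buffer, while the 4 diabetic samples came from mice made diabetic with streptozotocin, which destroys the insulin-producing cells of the pancreas (40 mg/kg daily for 5 days, begun at 8 weeks of age). All mice then ate a western diet for 8 weeks and received 1.5 mL of 3% thioglycollate, which brings white blood cells into the peritoneal cavity, 3 days before the cells were rinsed out. No sex, background strain or sorting step is given, nor whether a sample was 1 mouse or a pool, so p-values cover only the spread between these samples. Streptozotocin and diabetes came together in every diabetic sample and cannot be told apart.

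Oligoadenylate synthetases are antiviral enzymes that interferon induces. On binding double-stranded RNA they join ATP into short 2',5'-linked oligoadenylates, which act as a second messenger of the antiviral response. Macrophages express the family at rest and raise it on sensing interferon.

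Transcription of these genes is known to be driven through interferon-stimulated response elements, which the interferon-activated factor complex ISGF3 binds. RefSeq promoter windows (GRCm38.p6) were at hand for Oas3, Oasl1 and Oasl2 among the measured genes. The core of the response element, GAAA, any 2 bases and GAAA again, was searched on both strands of the 250 bases before each start. It was present once before Oas3, at 75 to 66 bases from the start, and not in the windows of Oasl1 and Oasl2. The stretch from 100 to 11 bases before the Oasl1 start overlaps 1 annotated exon, unlike those of Oas3 and Oasl2. The windows of Oas1a and Oas1g each held 2 overlapping matches. Of 27025 genes with a window, 3.46% held the core, and so did 16 of 39 other interferon-stimulated genes with a window. A match or its lack in so short a window is a description of these letters. The 90 bases from 100 to 11 before the start are shown for Oas3 (chr5:120777670-120777759, minus strand) and, as a window without the core, for Oasl2 (chr5:114896834-114896923, plus strand). Both are written 5′ to 3′ along the gene, with the core in capitals.
Oas3: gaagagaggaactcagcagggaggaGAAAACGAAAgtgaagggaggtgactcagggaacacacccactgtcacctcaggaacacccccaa
Oasl2: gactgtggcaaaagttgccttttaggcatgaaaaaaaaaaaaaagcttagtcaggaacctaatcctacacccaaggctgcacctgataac

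Each library held 14156421 to 16169060 reads in genes. Values are FPKM, fragments scaled to gene length and to the reads of the library. Apoe, the disrupted gene, was listed at 231 to 373 FPKM in control and 135 to 296 FPKM in diabetic samples, and a count over the whole gene need not show a disruption. Macrophage genes were abundant in both groups: the 9 macrophage markers in the table summed to 2064 to 2765 FPKM in control and 1611 to 2735 FPKM in diabetic samples, and none was at 0. T cell genes moved with the groups. Of 17 T cell markers tested, 17 had a positive log2 fold change and 16 were called higher in diabetic samples. The 18 in the table summed to 64.4 to 101 FPKM in control against 169 to 606 FPKM in diabetic samples, with none at 0. The part of T cells in the results that follow was not tested. Of the other marker lists, 2 of 11 B cell genes (Ighd, Fcer2a), 1 of 9 natural killer cell genes (Klrd1) and 1 of 9 genes of large peritoneal macrophages (Naip1) were called higher, and 1 of 8 macrophage genes (Mrc1) and 1 of 4 dendritic cell genes (Batf3) lower. By limma 0 genes were called among 3 plasmacytoid dendritic, 7 neutrophil, 6 mast, 3 eosinophil, 4 mesothelial and 2 erythroid markers, where 1, 0, 4, 2, 3 and 1 had an unadjusted p below 0.05. Among all genes tested, 2.68% were called higher, 2.08% were called lower and 22.4% had an unadjusted p below 0.05. Ighd kept its call in all 9 fits that left out 1 sample, Fcer2a and Klrd1 lost theirs without diabetic 2 (adjusted p = 0.051 by limma for both), and Mrc1, Naip1 and Batf3 passed in 1, 2 and 3 of the 9. In such mixed samples, fewer cells of a type and less RNA per cell cannot be told apart.

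In control samples Oasl1 stood at 22.5 ± 3.47 FPKM (SD, n = 5), Oas2 at 17 ± 3.43 FPKM, Oasl2 at 16.5 ± 2.80 FPKM and Oas3 at 5.48 ± 1.34 FPKM. FPKM is per length, so the genes can be ordered. The ranges of Oasl1, Oas2 and Oasl2 overlapped, while the highest Oas3 value among controls (7.09 FPKM) lay below the lowest of the other genes there (12.3 FPKM). The depth behind these values was 526 to 1241 reads per sample for Oasl1, 868 to 1635 for Oas2, 1118 to 3598 for Oasl2 and 339 to 1555 for Oas3.

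The 4 genes were selected on their FPKM in these same control and diabetic samples, so their differences are given as a description. The fit over all genes included them, but nothing is read from its p-values for them. Oas3, the largest synthetase, which makes oligoadenylates on long double-stranded RNA, showed the widest gap. Control 1 to 5 gave 7.09, 5.65, 3.36, 5.53 and 5.79 FPKM, and diabetic 1 to 4 gave 11.5, 5.82, 15.4 and 11.2 FPKM. Diabetic 1, 3 and 4 lay above every control sample, and diabetic 2 lay within the control range. The diabetic mean of 11 ± 3.92 FPKM (SD, n = 4) was 2.0 times the control mean. On the log2(FPKM + 1) scale of all fold changes here, the difference of diabetic minus control was 0.84 (SE 0.25).

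Oasl2, an active synthetase that carries ubiquitin-like repeats at its end, also had diabetic 3 highest and diabetic 2 lowest among the diabetic samples, with a smaller gap. Its values were 19.2, 18.9, 12.3, 15.8 and 16.1 FPKM across control 1 to 5, against 23.8, 12, 39.4 and 26.3 FPKM across diabetic 1 to 4. The means were 16.5 ± 2.80 and 25.4 ± 11.2 FPKM (SD, n = 5 and 4), a log2 fold change of 0.50 (SE 0.28). Diabetic 2 was the lowest and diabetic 3 the highest of all 9 samples.

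Oas2, a synthetase built of repeated units, gave 17.8, 21.9, 13.8, 18.0 and 13.7 FPKM over the control samples and 20.5, 13.2, 25.7 and 20.7 FPKM over the diabetic ones. Its log2 fold change was 0.20 (SE 0.19). Oasl1, a family member without synthetase activity that is known to hold back translation of the interferon regulator IRF7, gave 21.5, 25.8, 17.7, 26.1 and 21.4 FPKM over the control samples and 24.2, 13.7, 33.3 and 28.6 FPKM over the diabetic ones, a log2 fold change of 0.09 (SE 0.22). For both genes the diabetic values spanned the control range on either side. The Oasl1 difference was -0.07 without diabetic 3 and 0.34 without diabetic 2, so its direction rests on single libraries. An antisense row overlaps Oasl1 by 38 bases and a row on the opposite strand overlaps Oas2 by 1273 bases (at most 36 and 11 reads per sample in those rows). The strand setting of the counting is not given in the sources used here.

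Diabetic 3 was the highest of the 9 samples for all 4 genes, and diabetic 2 was the lowest for Oas2, Oasl1 and Oasl2 and the fifth for Oas3. The spread inside the diabetic group was therefore shared by the 4 genes. Their summed level was 65.5, 72.2, 47.1, 65.4 and 57.1 FPKM in control 1 to 5, and in diabetic 1 to 4 it was 79.96, 44.8, 114 and 86.7 FPKM, so diabetic 2 lay below every control and the other diabetic samples above. Among the diabetic samples T cell markers were highest in diabetic 2 and lowest in diabetic 3. Relative to the control mean of log2(FPKM + 1), the 17 T cell markers stood at 1.81, 2.55, 0.92 and 2.36 in diabetic 1 to 4, while the 4 synthetase genes stood at 0.47, -0.32, 0.93 and 0.56. The 8 macrophage markers stood at -0.37, -0.35, 0.20 and -0.53 and the 9 natural killer cell markers at 0.43, -0.11, 0.83 and 0.63. The part of these cells in the spread was not tested. Of the 4 genes, 0 passed the limma test at an adjusted p below 0.05 (1, Oas3, had an unadjusted p below 0.05), where 4.76% of the 11193 genes tested were called, 2.68% higher and 2.08% lower in diabetic samples. The groups overlapped for all 4 genes, while they did not overlap for 4.82% of all genes with diabetic samples higher and 4.6% with them lower. At that unadjusted level 22.4% of all genes passed. Since the choice of genes used this contrast, nothing is read from these counts. The mean log2 fold change of the 4 genes was 0.41, 0.65 without diabetic 2 and 0.23 without diabetic 3. For Oas3 it was 1.09 without diabetic 2 and 0.67 without diabetic 3.

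**Figure D1:**
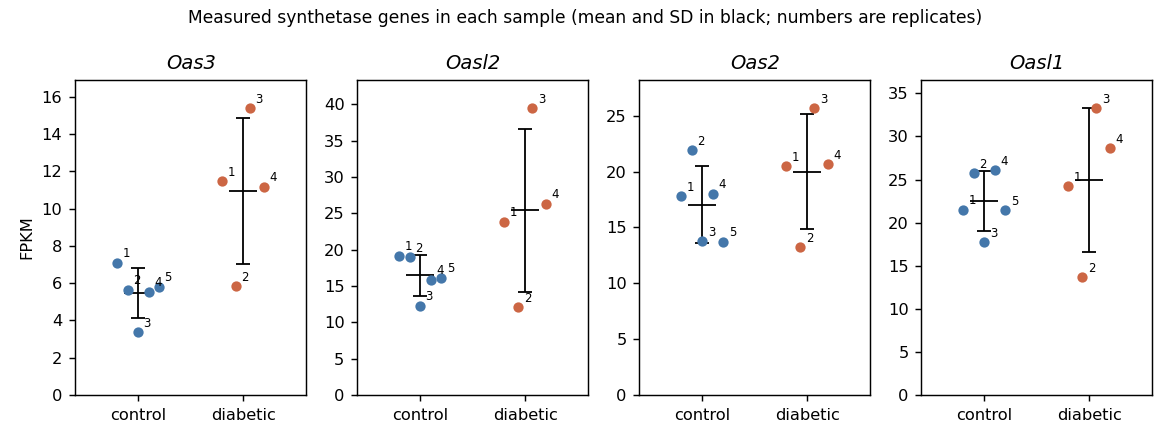
FPKM of Oas3, Oasl2, Oas2 and Oasl1 in each control and diabetic sample, with group means and SD (n = 5 and 4) in black and replicate numbers beside the points. Diabetic 3 is the highest point for each synthetase gene and diabetic 2 sits in or below the control range.

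Other genes of the pathway follow. Abce1, an ATPase that recycles ribosomes and is known to restrain the oligoadenylate pathway, stood at 15.7 ± 3.08 FPKM in control (SD, n = 5) and 16 ± 2.01 FPKM in diabetic ones (SD, n = 4), and the log2 fold change was 0.04 (SE 0.15, adjusted p = 0.90 by limma). The sign of this difference turned in 5 of 18 alternatives. Pde12, a phosphodiesterase that degrades oligoadenylates, stood at 3.72 ± 0.452 and 3.63 ± 0.399 FPKM, a log2 fold change of -0.03 (SE 0.11, adjusted p = 0.91 by limma) whose sign turned without control 4 and without diabetic 4. Akap7, an anchoring protein with the same phosphodiesterase activity, stood at 4.10 ± 1.25 and 4.89 ± 0.584 FPKM, a log2 fold change of 0.24 (SE 0.17, adjusted p = 0.44 by limma). These 3 genes gave no call.

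In the Oas1 cluster, Oas1b and 1 unnamed row stood near the control level of Oas3, and the other rows were under the filter of the fit. Oas1b, which carries a premature stop in most laboratory strains and is listed as a polymorphic pseudogene, stood at 4.68 ± 0.466 FPKM in control (SD, n = 5) and 6.19 ± 0.874 FPKM in diabetic ones (SD, n = 4), and the log2 fold change was 0.34 (SE 0.11, adjusted p = 0.10 by limma). It passed without diabetic 3 (0.41, adjusted p = 0.040 by limma), and its adjusted p ran from 0.019 to 0.27 over 18 alternatives. Its order among diabetic samples was another than that of the 4 genes above: diabetic 4 was the highest at 7.24 FPKM and diabetic 3 the lowest at 5.12 FPKM. An unnamed row (MGP_C57BL6NJ_G0030446), whose UniProt match is Oas1c, stood at 4.22 ± 1.43 against 5.28 ± 0.719 FPKM (adjusted p = 0.35 by limma). Another (MGP_C57BL6NJ_G0030449), matched to Oas1d, had 0.195 ± 0.102 against 0.596 ± 0.214 FPKM from 2 to 19 reads per sample, under the filter of the fit. Oas1h stood at 0.337 ± 0.205 against 0.132 ± 0.116 FPKM from 0 to 17 reads. The genes of this cluster are close copies, so the counting may have split or shared their reads, and reads of unlisted copies may have landed on them.

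**Figure D2:**
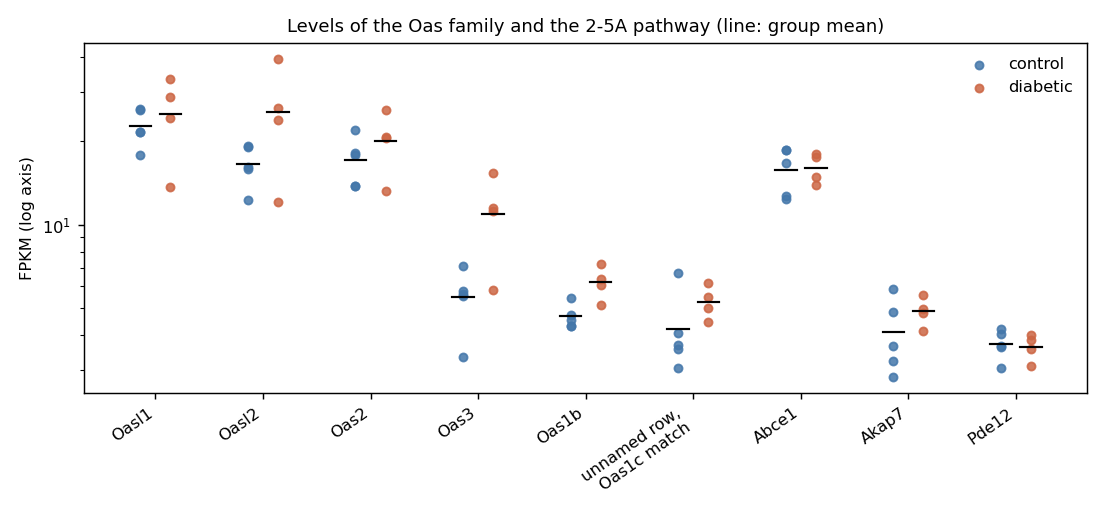
FPKM on a log axis for the measured Oas family rows and the other genes of the pathway, 1 point per sample with a line at each group mean. The control and diabetic points (n = 5 and 4) overlap for each gene shown.

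Other proteins that sense or answer to double-stranded RNA were next. Of 12 such genes tested, 1 was called higher and 0 lower (median log2 fold change 0.15, against -0.01 over all genes tested). Among all genes 2.68% were called higher and 2.08% lower. Zbp1, a sensor of left-handed nucleic acids, rose from 14.7 ± 2.50 FPKM (SD, n = 5) to 37.8 ± 12.9 FPKM (SD, n = 4), a log2 fold change of 1.25 (SE 0.23, adjusted p = 0.018 by limma). Its diabetic values of 37.1, 21.1, 52.3 and 40.8 FPKM had the sample order of Oasl2, with diabetic 2 the lowest and diabetic 3 the highest. The call ended without diabetic 4 (log2 fold change 1.19, adjusted p = 0.065 by limma, with 0.0048 to 0.098 over 18 alternatives).

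Of 20 genes of interferon signalling, 3 were called higher and 0 lower (median log2 fold change 0.18), against 2.68% and 2.08% of all genes. Irf1, a transcription factor that interferon induces, rose from 19.5 ± 1.34 FPKM (SD, n = 5) to 34.3 ± 4.46 FPKM (SD, n = 4), a log2 fold change of 0.77 (SE 0.11, adjusted p = 0.0055 by limma) and kept its call whichever of the 9 samples was left out. Usp18, a protease that damps the type I receptor, rose from 7.49 ± 1.96 to 13.4 ± 2.78 FPKM (log2 fold change 0.77, SE 0.19, adjusted p = 0.042 by limma). The Usp18 call held only without control 2, and its adjusted p reached 0.11 by limma in the other such fits (0.011 to 0.18 over 18 alternatives). The interferons themselves were scarcely seen. Of the 16 interferon genes measured, 12 were at 0 in every sample, their sum was at most 0.923 FPKM in any sample, and none passed the filter of the fit.

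Among other type I interferon-stimulated genes, 9 of 41 were called higher and 0 lower, and 37 of 41 had a positive log2 fold change (median 0.47). Across all genes 2.68% were called higher. Ifit1bl1, of the Ifit family, rose from 1.6 ± 0.256 FPKM (SD, n = 5) to 6.46 ± 1.75 FPKM (SD, n = 4), a log2 fold change of 1.50 (SE 0.15, adjusted p = 0.0029 by limma). Ifi47, an immunity-related GTPase, rose from 28.6 ± 4.92 to 69.4 ± 9.57 FPKM (log2 fold change 1.26, SE 0.14, adjusted p = 0.0033 by limma). Slfn1, of the Schlafen family, rose from 34 ± 8.53 to 87.0 ± 7.17 FPKM (log2 fold change 1.36, SE 0.17, adjusted p = 0.0039 by limma), and Ms4a4c, a membrane protein, from 17.9 ± 4.62 to 54.1 ± 10.8 FPKM (1.56, SE 0.20, adjusted p = 0.0044 by limma). These 4 genes kept their call whichever of the 9 samples was left out. The replicate block ended the call of Slfn1 (adjusted p = 0.051 by limma). Slfn1 and Ms4a4c had the diabetic sample order of Oasl2, with diabetic 3 highest and diabetic 2 lowest. For Ifit1bl1 diabetic 4 was the highest (8.82 FPKM) and diabetic 3 the lowest (4.61 FPKM), and for Ifi47 diabetic 4 was the highest (79.7 FPKM) and diabetic 2 the lowest (58.5 FPKM). The log2 fold change of Oas3 (0.84, SE 0.25) lay next to that of Xaf1 (0.84), an inhibitor of an anti-apoptotic protein, which was called (SE 0.17, adjusted p = 0.023 by limma). Dtx3l (0.88) and Cmpk2 (0.80) lay near it too and were not called (adjusted p = 0.28 and 0.065 by limma). The count of 9 was 5 without control 3, without diabetic 1 or without diabetic 4.

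**Figure D3:**
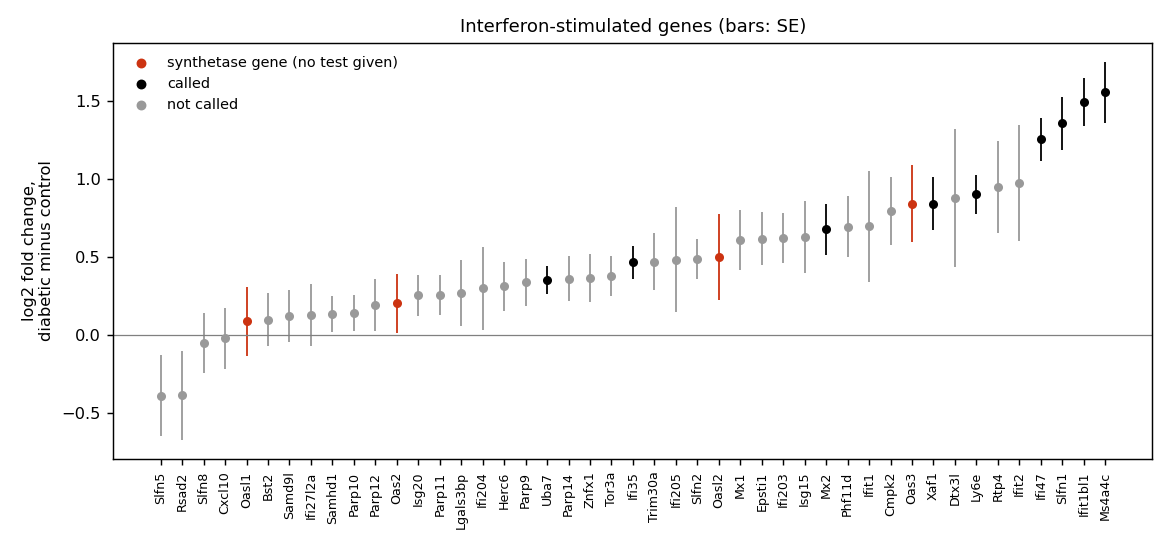
Log2 fold changes, diabetic minus control, with SE bars for the 4 synthetase genes (red, no test given) and the 41 other interferon-stimulated genes tested (black where called, grey where not). The synthetases spread from 0.09 (Oasl1) to 0.84 (Oas3) within a list whose median is 0.47.

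Genes led by interferon gamma gave 4 rises and 0 falls among 15 tested (median log2 fold change 0.47), against 2.68% and 2.08% of all genes. Igtp, a GTPase of vacuole defence, rose from 17.8 ± 2.53 FPKM (SD, n = 5) to 41.5 ± 7.52 FPKM (SD, n = 4), a log2 fold change of 1.17 (SE 0.14, adjusted p = 0.0033 by limma). Nlrc5, the activator of MHC class I genes, rose from 5.23 ± 0.302 to 10.1 ± 1.41 FPKM (log2 fold change 0.82, SE 0.11, adjusted p = 0.0050 by limma). Its call ended with the replicate block (adjusted p = 0.051 by limma). Gbp4 and Tap1, a guanylate-binding protein and a peptide transporter, had log2 fold changes of 0.92 and 0.63 (both called higher). Gbp4 reached 1 FPKM only in diabetic samples (1.16 to 2.87 FPKM, against 0.379 to 0.697 FPKM in control). It met the filter of the fit on those 4 samples alone, so it went untested whenever a diabetic sample was dropped. Dropping any control kept its call, while the replicate block ended it (adjusted p = 0.078 by limma). The Tap1 call ended without diabetic 1 and without diabetic 4 (adjusted p = 0.055 and 0.073 by limma, with 0.0059 to 0.098 over 18 alternatives). The T cell marker list was higher in the diabetic group as well, at 1.81, 2.55, 0.92 and 2.36 in diabetic 1 to 4. In the same samples the interferon-stimulated list stood at 0.59, 0.09, 0.80 and 0.54. The interferon gamma list stood at 0.52, 0.07, 0.59 and 0.61. Each value is relative to the control mean of log2(FPKM + 1) of its list. The part of T cells in these group differences was not tested.

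**Figure D4:**
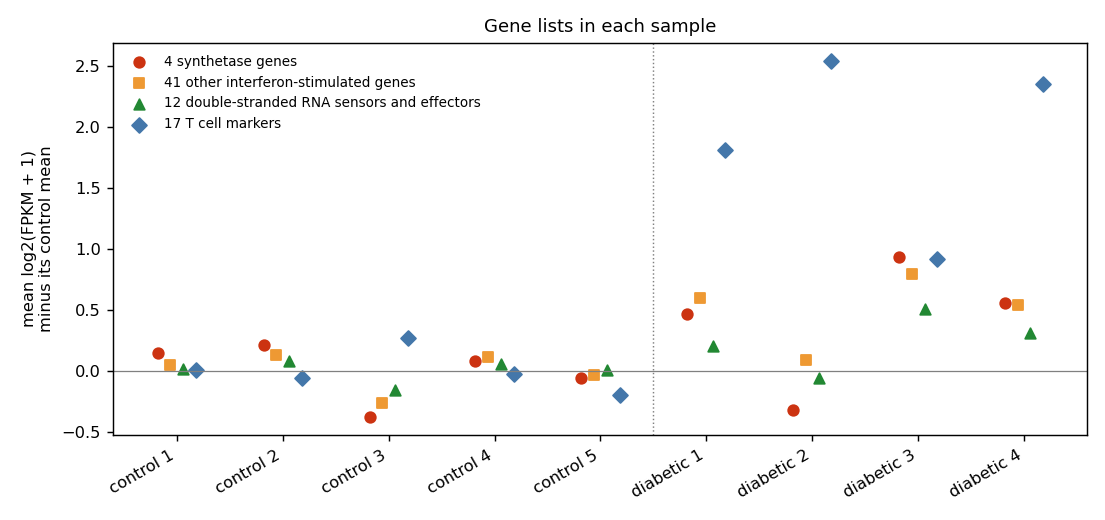
Mean log2(FPKM + 1) of each gene list in each of the 9 samples, minus its mean over the 5 control samples. Diabetic 2 has the highest T cell value (2.55) and the lowest synthetase value of the diabetic samples (-0.32). Diabetic 4 stands at 2.36 and 0.56 for these lists.

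To see which genes tracked the synthetases from sample to sample, group means were removed and each of 11189 other genes was compared with the mean standardised deviation of the 4 members over the 9 samples, which share library preparation and scaling. The 8 most alike were Slfn5 (Pearson r 0.96), Stat2 (0.96), Irgm1 (0.96), Mx1 (0.95), Irf7 (0.95), Mms22l (0.94), Gbp3 (0.94) and Dhrs9 (0.94), given as a description. Of these 8, 6 were on the sensor, signalling, interferon-stimulated or interferon gamma lists, which held 12, 20, 41 and 15 tested genes. The lists were chosen with earlier results of these data known, so nothing is read from this count. Genes alike in this way differed in their group contrast. Stat2, a signal transducer of type I interferon, stood at 11.5 ± 1.53 FPKM in control and 18.8 ± 4.60 FPKM in diabetic samples (SD, n = 5 and 4), with a log2 fold change of 0.63 (adjusted p = 0.053 by limma). Irf7, a regulator of interferon genes, stood at 65.3 ± 14.3 against 117 ± 48.4 FPKM (log2 fold change 0.76, adjusted p = 0.15 by limma). Slfn5 stood at 13.2 ± 3.4 against 10.1 ± 3.78 FPKM (log2 fold change -0.39, adjusted p = 0.42 by limma). Dhrs9, a short-chain dehydrogenase, fell from 5.57 ± 0.928 to 2.24 ± 0.934 FPKM (log2 fold change -1.06, SE 0.20, adjusted p = 0.018 by limma).

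All 4 measured synthetase genes lie on chromosome 5 at 2 loci, Oasl2 and Oasl1 at 122248776 to 122300590 and Oas2 and Oas3 at 128785906 to 128841359, as the table gives positions. The Oas1 rows follow Oas3 directly. Of 15 other neighbouring genes 8 could be tested and 0 were called by limma (3 had an unadjusted p below 0.05). Among all genes tested, 4.76% were called and 22.4% had an unadjusted p below 0.05, and nothing is read from these counts. Next to Oas2, Dtx1, a Notch regulator, stood at 2.71 ± 1.28 and 4.78 ± 1.59 FPKM, with a log2 fold change of 0.66 (adjusted p = 0.22 by limma). Next to Oasl1, 2210016L21Rik stood at 10.1 to 12.4 FPKM in control and 12.1 to 14.0 FPKM in diabetic samples (log2 fold change 0.20, adjusted p = 0.22 by limma).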

How the data were processed

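The authors deposited 1 table of FPKM values for 9 samples, with gene length, position and biotype, per the file headers. GRCm38 and mm10 are the builds in the submitters' processing notes. The identifiers are of the C57BL/6NJ gene set, so positions are printed as the table gives them. Which aligner, counter and strand setting were used is not given in the sources used here. Libraries used a SMARTER mRNA kit, per the labels' protocols. Values multiplied by gene length were whole multiples of 1 read in every sample (100% within 0.05), which gave the read counts; 0 sample columns stayed unmatched.

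limma 3.58.1 in R 4.3.3 (lmFit and eBayes with trend and robust moderation) was run on log2(FPKM + 1) for genes reaching an FPKM of 1 in 4 or more samples, two-sided, group as the only factor, with Benjamini-Hochberg adjustment over all 11193 genes and calls at an adjusted p below 0.05. The scale understates changes of low genes. The script was tested on simulated data. Names came from the table (30409 genes) or its UniProt match (252 more).

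Some genes of the lists are not reported here. The members and lists were chosen with earlier results of these data known. Named were Apoe, the members, other Oas rows, the pathway list, up to 4 called genes by p per other list (up to 2 where none was called), the 8 most alike genes and 5 coding neighbours on each side. Lists of markers for T, B, natural killer, dendritic, plasmacytoid dendritic, mast and mesothelial cells, macrophages, large peritoneal macrophages, neutrophils, eosinophils and erythroid cells were counted as well. Other genes named, such as Xaf1, were chosen after their values were seen. Alternatives were other pseudocounts, filters and scalings, plain moderation, array weights, a replicate block and leaving out each sample.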

Additional observations from a re-analysis of the deposited data

Results flagged for a closer look

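Of 142 groups of values checked over the named genes, 9 held 1 sample far from the rest, where chance flags about 1 group in 20. In the Oas1 cluster, control 2 stood at 6.70 FPKM for the unnamed row matched to Oas1c (the other controls at 3.06 to 4.08), and control 4 had 0.139 FPKM, 3 reads, for an unnamed row matched to Oas1d that was at 0 elsewhere. Among neighbours at the Oas loci, single samples had 1 to 3 reads where the rest of their group had 0: diabetic 1 for 4930519G04Rik (0.016 FPKM), control 5 for Gm9936 (0.0637 FPKM), and control 1 and diabetic 4 for Cfap73 (0.0699 and 0.139 FPKM). Among markers, diabetic 3 stood at 41 FPKM for the mannose receptor Mrc1 (the other diabetic samples at 17.8 to 20.8) and at 25.8 FPKM for Spib (45.0 to 46.6). Control 5 stood at 0.646 FPKM for Msln (1.38 to 1.62). None of the 4 synthetase genes was among them.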

How the results depend on the processing

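The count of 533 called genes became 183 with no filter, 1304 with array weights, 62 with the replicate block, and 115 to 1126 when single samples were left out. The count of 9 interferon-stimulated genes became 5 with no filter, 16 with array weights, 3 with the replicate block, and 5 to 9 with 1 sample left out. The mean log2 fold change of the 4 members ran from 0.23 to 0.65 over those fits. The cause of these shifts was not tested. Signs turned for values near 0: Abce1 with array weights (-0.075) and, with 1 sample left out, Abce1 (-0.040 to 0.10), Pde12 (-0.080 to 0.032), Gbp3 (-0.091 to 0.27) and Oasl1 (-0.068 to 0.34). No source says that replicate numbers pair samples, and deviations of same-numbered samples had a negative correlation in 2 of 4 pairs (0.02, 0.16, -0.26 and -0.18 for numbers 1 to 4). TPM scaling and quantile normalization left the median of all genes at -0.03 and -0.02. Depth limits the Oas1 rows, some at 0 to 19 reads. PCR copies cannot be told from molecules.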
